A study of Oryza sativa with 3 samples.

Results

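Rice chromosome 5 was read here as an ordered row of genes, and the leaf signals of 2 transgenic rice lines were set beside those of their control cultivar along it. The members were genes on chromosome 5 of the gene table of assembly ASM3414082v1 that had a probe set listed with that gene alone, placed in order of their start. Each gene was represented by its probe set with the highest mean signal, and was kept where that mean over the 3 arrays exceeded the median of all signals. Of 2943 chromosome 5 genes in the gene table, 1510 had such a probe set and 1229 were kept, out of 14397 genes kept in the whole series. The remaining 281 listed genes had a mean at or below that median and were not compared.

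The study measured leaf RNA on Affymetrix rice arrays, with 1 array for each of 3 samples. The transgenic samples were OsEBS-transgenic lines B10201 and B10301 in the Guichao2 background, and the control was wild type Guichao2. Every sample pooled leaves of 10 plants aged 6 weeks, untreated, in a greenhouse at 28 °C with 14 h light and 10 h dark a day. The labels do not give the promoter that drives the transgene, or whether the lines come from separate transformation events. No gene of the gene table carries the name EBS, so the transcript of the transgene itself was not analysed here and the labels could not be checked against it.

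Genes lie along a rice chromosome in a fixed order, and relatives that arose by local duplication often sit side by side, so neighbours can carry related proteins. Calmodulins, for example, are small calcium sensors that bind and switch other proteins when calcium in the cell increases, and calmodulin-like proteins share their calcium-binding motif. Other chromosome 5 genes met below make the plant cell wall: CESA1 is a catalytic subunit of cellulose synthase, and UGE-1 interconverts UDP-glucose and UDP-galactose, sugar donors for wall polysaccharides. Most members have only a locus number in the gene table: 182 of 1229 carry a readable symbol or synonym, and no role is given below to the others.

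All values are log2 signals, so a difference of 1 is 2-fold. Signals below 5.50 on the log2 scale, the median of all signals, were raised to that floor, and a ratio with the floor on either side is a lower limit of the difference, marked by the words at least. A log2 ratio is a line's signal minus that of the control array. In 2 blocks of consecutive probe sets the B10301 values stood 1 row away from their own probe set, and were moved back. Of the members, 262 lay in those blocks, and over them B10301 correlated with the average of B10201 and the control at 0.335 as deposited and at 0.958 after the move.

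The arrays were similar in overall level, with median log2 signals of 5.56 in B10201, 5.54 in B10301 and 5.41 in the control. Their trimmed means in linear signal were 497.4 in B10201, 497.4 in B10301 and 497.5 in the control. Scaling each array to a common level gives such near-equal values, so the similar level is not a result about the plants. Markers of leaf mesophyll were high on all 3 arrays: 10 of 11 such genes lay above the floor, from 10.85 to 15.57 in B10201, from 11.55 to 15.93 in B10301 and from 10.87 to 15.57 in the control. The log2 of their summed signal was 17.89 in B10201, 18.20 in B10301 and 17.93 in the control. Of the 2 root markers, 1 was above the floor, the silicon channel LSI1, at 10.18 in B10201, 10.15 in B10301 and 9.74 in the control. Among flower markers 4 of 10 were above the floor, with a log2 summed signal of 11.13 in B10201, 11.22 in B10301 and 11.59 in the control. Of 9 genes taken up by the seed storage patterns 4 were, with 12.58 in B10201, 12.89 in B10301 and 12.67 in the control, though those patterns also took in plant haemoglobins and a PII protein. The part of cell makeup in the differences below was not tested, and in bulk leaf RNA fewer cells of a type and less RNA per cell cannot be told apart.

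Chromosome 5 as a whole sat level with the control, and a small set of its genes stood away from it in both lines. The median log2 ratio over the 1229 genes was -0.04 in B10201 and -0.02 in B10301, against -0.02 and -0.01 over all 14396 measured genes of the 12 chromosomes. In 70 genes both lines differed at least 2-fold from the control, and in the same direction, 38 higher and 32 lower. That is 5.70% of the chromosome's measured genes, beside 4.61% of all measured genes. The higher genes made up 3.09% of chromosome 5, beside 2.0% of all measured genes, and the lower ones 2.60%, beside 2.61%.

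Among the 12 chromosomes this share ranked behind only the 12.8% of chromosome 11 and the 7.35% of chromosome 12, and the lowest was 2.51% on chromosome 2. Taken line by line, 127 members reached 2-fold from the control in B10201 (10.3%, beside 9.12% of all measured genes) and 125 in B10301 (10.2%, beside 8.27%). Only 2 members were at least 2-fold away in opposite directions in the lines. The split of directions depends on scaling. With each array centred on its own median, which lowered the all-gene median ratio by 0.14, 29 members were higher and 50 lower, 36.7% higher in place of 54.3%. It also depends on the floor: 85 were higher and 46 lower (64.9% higher) with a floor at the 25th percentile of all signals, and 13 higher and 17 lower (43.3% higher) with one at the 75th percentile.

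The control was a single array, so these counts carry no test, and both lines share that control. In limma, which took the spread from the 2 lines and assumed the control to vary like them, no member passed the two-sided Benjamini-Hochberg threshold of 0.05 over 26475 probe sets. The lowest adjusted p of a member was 0.101, and 0 of all probe sets passed. An unadjusted p under 0.05 was reached by 278 members (22.6%), 145 of them higher and 133 lower, beside 20.2% of all measured genes, of which 10.3% were higher and 9.89% lower. Of the 70 genes named above as at least 2-fold, 69 were among them. Those genes were picked from the same 3 values that give the p, so this overlap is no separate support. Nothing in the labels says that the lines were grown or harvested separately, so p-values reflect no more than the spread between these samples, and that may be technical. A permutation of 3 arrays cannot give an exact p below 0.333.

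The 2-fold line itself cuts through a continuum. Just inside it were LOC4337952, whose smaller ratio of the lines was -1.0021, and CESA1, at 1.0148. Just outside were LOC4338151 at 0.9998, LOC4338655 at 0.9987 and CRSH2, one of the RelA/SpoT homologs of chloroplasts, at 0.9974. Of the genes kept, LOC4339527 had the lowest 3-array mean before signals were raised to the floor, 5.51, and of those left out LOC4338290 had the highest, 5.50.

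The genes that differed from the control in both lines were unevenly placed along the order. In consecutive windows of 50 measured genes, windows 1 to 15 held from 0 to 2 such genes each, apart from window 6 with 6. Windows 16 to 25 held from 3 to 9 each. In all, 19 of the 750 genes of windows 1 to 15 were at least 2-fold in both lines (2.53%), against 51 of the 479 genes after them (10.6%). The place of this division was chosen after the counts were seen, so it is a description. Cut at the middle of the order instead, the later 615 genes held 52 (8.46%) and the earlier 614 genes held 18 (2.93%).

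**Figure D1:**
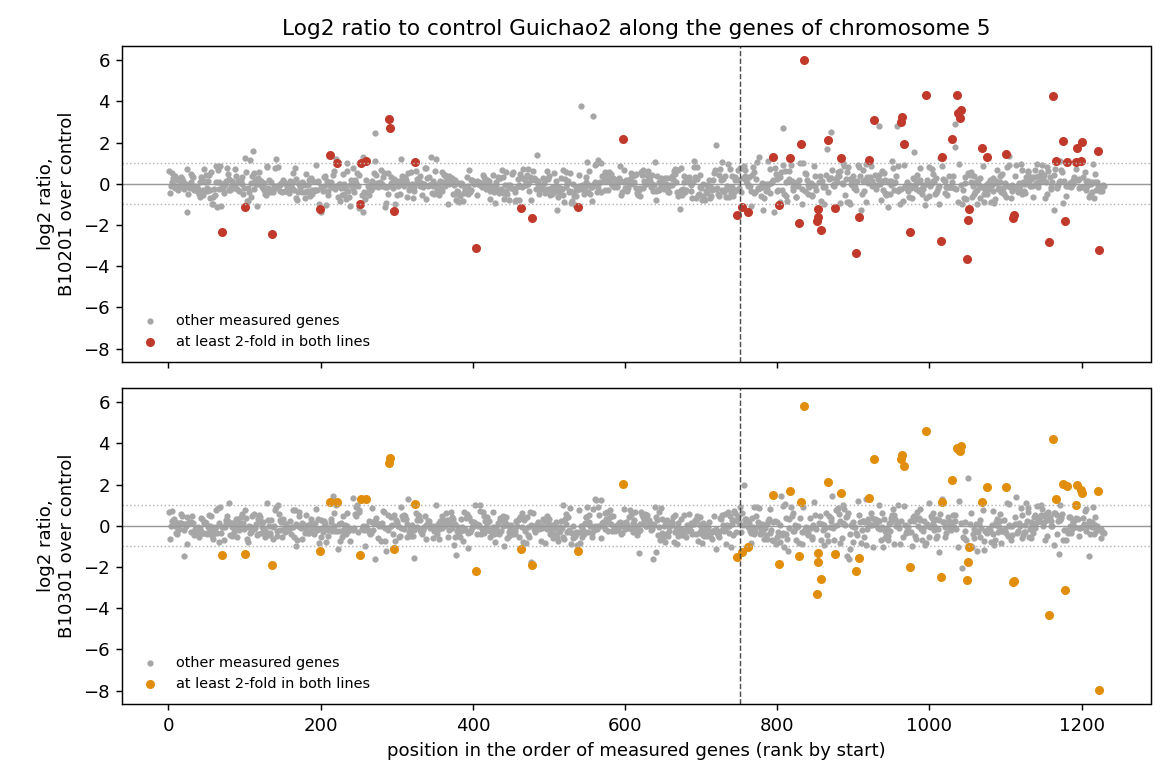
Log2 ratio of B10201 (upper panel) and of B10301 (lower panel) to the control for each of 1229 measured chromosome 5 genes, by position in the order of starts. Genes at least 2-fold in both lines are in the colour of the panel's line, other genes are grey, and a dashed line stands after gene 750. Coloured points are sparse before the dashed line, 19 of 750, and denser after it, 51 of 479.

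The later windows did not fill evenly. Window 16 held 3 genes, window 17 held 5, window 18 held 7, window 19 held 4 and window 20 held 5. Window 21 held 8, window 22 held 4, window 23 held 3, window 24 held 9, and the last window, of 29 genes, held 3. Windows 21 and 24 were thus the fullest here, and which window is fullest depends on the processing. It was window 18 with centred arrays (11 genes) and window 21 with signals not raised to the floor (10 genes). Under a floor at the 75th percentile 860 genes were kept and windows were cut anew among them. The fullest there held 5 genes, and its number, 17, does not mark the same stretch as window 17 above. In B10201 alone it was window 6, with 12 genes, and in B10301 alone window 21, with 14.

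The same windows on other chromosomes give the scale. Over 281 full windows of the 12 chromosomes the median was 2 genes, the 90th percentile was 5, the highest count was 12, and 41 windows had none. Of 24 full windows of chromosome 5, 6 held at least 5 genes, beside 28 of the 257 full windows elsewhere. At least 8 were found in 10 windows elsewhere and at least 9 in 5, so the counts of windows 21 and 24 occur on other chromosomes too.

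**Figure D2:**
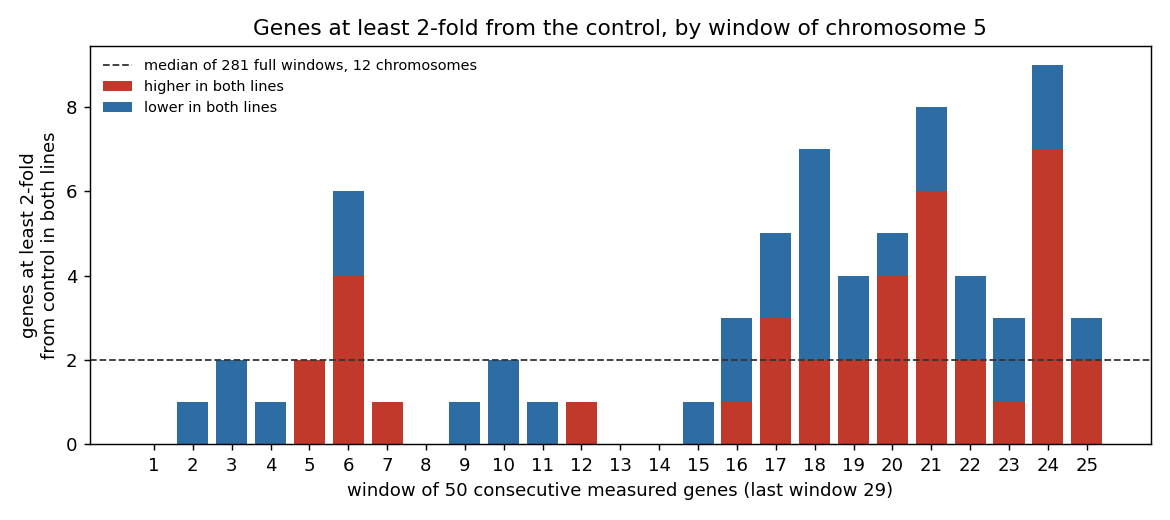
Number of genes at least 2-fold higher or lower than the control in both lines in each of 25 consecutive windows of 50 measured genes along chromosome 5, the last of 29 genes. Window 24 is the fullest with 9 genes, window 21 has 8, and windows 1, 8, 13 and 14 have none.

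At the same cut, the shares of each line taken singly were also uneven, in part by construction. In B10201, 15.4% of the later genes were at least 2-fold from the control, against 7.07% of those in windows 1 to 15, and in B10301 the shares were 17.1% and 5.73%. Both shares use the same control array, so they are not independent. They also include every gene 2-fold in both lines, and the cut was chosen from those genes. Of the 74 later genes in B10201 and 82 in B10301, 51 were such genes, and of the 53 and 43 earlier ones, 19. The single-line shares are therefore no separate support for the uneven placing. Without the displaced blocks, 41 of 357 later genes (11.5%) and 14 of 610 earlier genes (2.30%) were at least 2-fold in both lines. Without probe sets marked x_at or s_at, which may cross-hybridise, the shares were 11.3% and 2.74%.

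The comparison that leaves the control out was more even. Between B10201 and B10301, 27 of the later genes were at least 2-fold apart (5.64%), against 28 of the earlier ones (3.73%), beside 4.15% of all measured genes. An unadjusted limma p under 0.05, which does use the control, was reached by 29.6% of the later genes and 18.1% of the earlier ones. The later genes had a median control signal of 9.67 and the earlier ones of 9.94, and whether signal level bears on the counts was not tested. The longest empty stretch of the order held 149 measured genes, between LOC4338704 and LOC4338977, just before the division.

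Genes far above the control lay mostly in the later windows. At least 8-fold higher in both lines were 11 of the 1229 genes of chromosome 5, beside 29 of 14396 on all 12 chromosomes. Chromosome 11 had 8 such genes of 611. Of the 11, 10 lay after window 15, where 479 of the 1229 genes lie. Lower by at least 8-fold in both lines was 1 member, of 9 in all. Genes were kept by the mean of 3 arrays, 2 of them transgenic. Genes high in the lines alone therefore passed more readily than genes high in the control alone. The counts of higher and lower genes are thus not on an equal footing. Of the 38 higher genes, 12 had a control signal at the floor, and 10 of those 12 lay after window 15. Over all chromosomes, 67 of 14396 genes were higher in both lines with the control at the floor, and on chromosome 11 14 of 611 were.

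The gene farthest above the control was LOC4339148, in window 17. Its signal was 11.50 in B10201 and 11.31 in B10301, against the floor in the control, at least 63.7-fold higher in B10201 and at least 55.7-fold higher in B10301. Its limma adjusted p of 0.101 was the lowest among members. It thus read well up the signal range on both lines' arrays and not above the median of all signals in the control.

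A group of 4 of the 12 highest genes sat within 6 consecutive measured genes of window 21. LOC4339501 had 9.81 in B10201 and 9.29 in B10301 with the control at the floor, at least 19.7-fold and 13.7-fold higher. LOC4339508 had 8.92 and 9.23 with the control at the floor, at least 10.7-fold and 13.2-fold. LOC4339506 had 8.69 and 9.15 with the control at the floor, at least 9.09-fold and 12.5-fold. These 3 genes were thus above the floor in the lines alone.

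The other member of that group was measured on every array. LOC4339505 had 11.68 in B10201 and 11.96 in B10301, against 8.08 in the control, 12.2-fold and 14.7-fold higher, a mean log2 ratio of 3.74 ± 0.20 (SD, n = 2). In the gene table LOC4339508, LOC4339507, LOC4339506 and LOC4339505 stand directly beside each other. Both lines were far above the control in this gene and close to each other.

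The genes among them and around them were not alike. LOC4339507, between LOC4339508 and LOC4339506, had 6.47 in B10201 and 6.69 in B10301 with the control at the floor, log2 ratios of at least 0.96 and 1.19. LOC4339502, beside LOC4339501, was below the control, with a log2 ratio of -0.86 in B10201 and of -1.01 in B10301. The flanking measured genes were near the control: LOC4339498 had ratios of -0.24 and -0.17, and LOC4339509 of -0.06 and 0.12. The B10301 values of LOC4339501, LOC4339502, LOC4339507 and LOC4339509 are moved values, and that of LOC4339501 was 5.24 as deposited.

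Window 20 held a second cluster of high genes, at positions 962 to 967 of the order. LOC4339380 had 13.48 in B10201 and 13.71 in B10301, against 10.46 in the control, 8.09-fold and 9.46-fold higher. LOC4339382 had 8.73 and 8.94 with the control at the floor, at least 9.38-fold and 10.8-fold. The B10301 value of LOC4339382 is a moved one and was 7.03 as deposited. LOC4339395 had 7.45 and 8.43 with the control at the floor, log2 ratios of at least 1.95 and 2.92. They alternated with genes nearer the control: LOC9266102 had ratios of -0.26 and 0.22, LOC4339385 of -0.85 and -0.55, and LOC4339386 of 0.91 and 0.97.

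**Figure D3:**
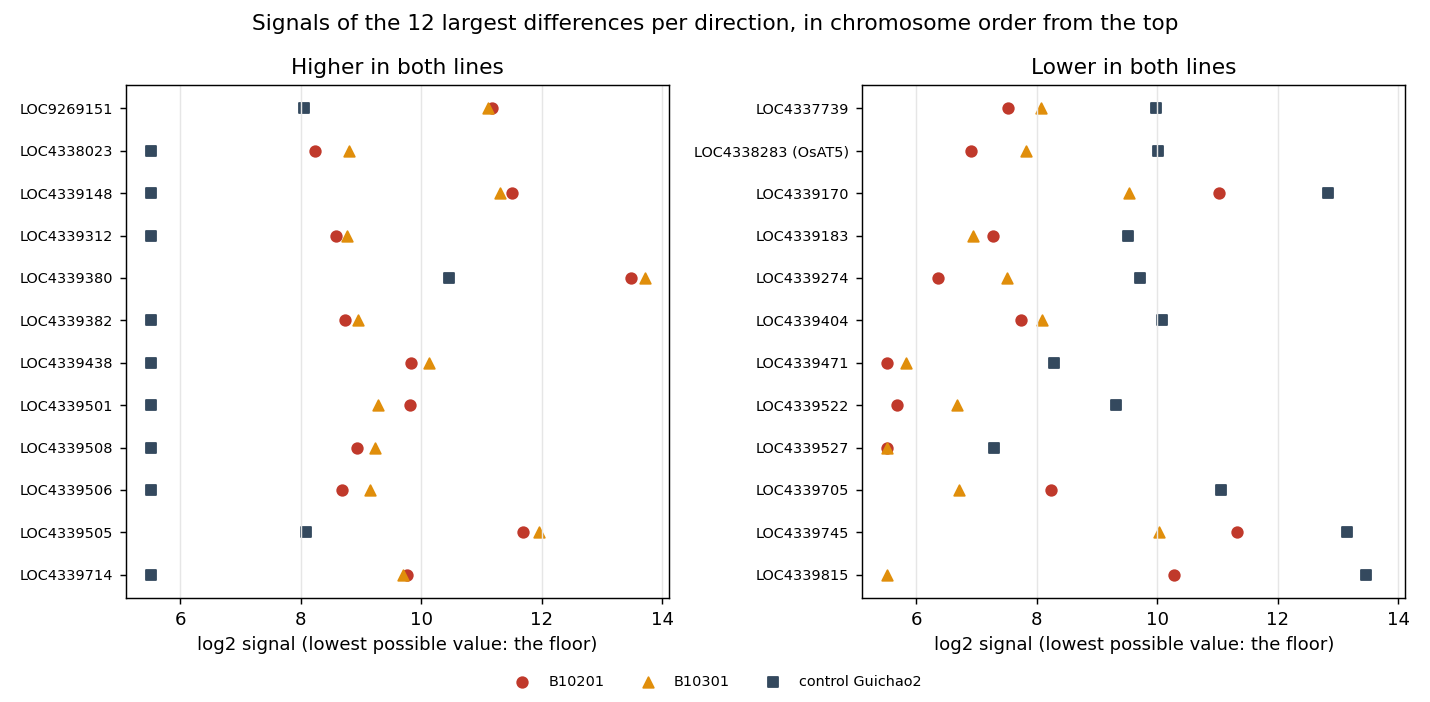
Log2 signals of the 12 chromosome 5 genes farthest above the control in both lines (left) and the 12 farthest below it (right), each in chromosome order from the top, with circles for B10201, triangles for B10301 and squares for the control. In 9 of the 12 genes on the left the control square lies at the floor of 5.50. Both lines lie on the same side of the control in all 24 genes, which the rule that picked them requires.

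Elsewhere along the chromosome, single genes were as high. LOC4339438 had 9.82 in B10201 and 10.12 in B10301 with the control at the floor, at least 19.9-fold and 24.5-fold higher. LOC4339714 had 9.76 and 9.70 with the control at the floor, at least 19.2-fold and 18.3-fold. LOC4339312 had 8.58 and 8.77 with the control at the floor, at least 8.45-fold and 9.62-fold. The lines differed from each other by less than 0.30 in each of these genes.

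Window 6 held a neighbouring pair of high genes, away from the others far above the control. LOC9269151 had 11.18 in B10201 and 11.10 in B10301, against 8.05 in the control, 8.74-fold and 8.30-fold higher. LOC4338023, next to it in the gene table, had 8.23 and 8.79 with the control at the floor, at least 6.61-fold and 9.78-fold. Both lie in a displaced block, and their B10301 values as deposited were 10.73 and 13.76. On either side, LOC4338021 had ratios of 0.52 in B10201 and 0.51 in B10301, and LOC4338024 of 0.02 and 0.01.

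Of the lower genes, 3 consecutive members formed the only run of at least 3 genes on the chromosome, and they include a calmodulin and a calmodulin-like gene. CAM2, which encodes calmodulin, had 11.06 in B10201 and 10.93 in B10301, against 12.27 in the control, a mean log2 ratio of -1.28 ± 0.09 (SD, n = 2). CML9, a calmodulin-like gene, had 7.81 and 7.67, against 9.41 in the control, a mean of -1.67 ± 0.09. LOC4339170, which precedes them, had 11.03 and 9.53, against 12.83 in the control, a mean of -2.56 ± 1.06.

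The lines agree closely in CAM2 and CML9 and less well in LOC4339170, which was 3.49-fold lower in B10201 and 9.89-fold lower in B10301. The 3 genes adjoin in the gene table with none between them. The measured genes on either side were near the control: LOC4339169 had ratios of -0.31 and -0.17, and LOC4339173 of 0.10 and 0.14. LOC4339183, the next lower gene, 3 places on from CAM2 in the measured order, had 7.27 in B10201 and 6.93 in B10301, against 9.51 in the control, with a B10301 value of 6.12 as deposited.

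Runs were otherwise short. Of 1228 adjacent pairs of measured genes, 7 had both genes 2-fold or more from the control in each line, and in 6 of the 7 pairs the direction was the same. Among the genes after window 15, 10.6% were such genes. Whether 7 pairs exceed what that density gives was not tested, and pairs on other chromosomes are not given here. The 7 pairs made up 6 runs with 13 genes in all. The pair of lower genes in window 23 joins UREG, an accessory protein that helps load nickel into urease, and LOC4339629. UREG had 8.38 in B10201 and 7.35 in B10301, against 10.06 in the control. LOC4339629 had 13.28 and 12.13, against 14.81 in the control, on a probe set marked s_at. In both genes B10301 was at least 2-fold below B10201.

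The gene farthest below the control, by the smaller of the ratios, was LOC4339815 near the end of the order. It had 10.27 in B10201 and the floor in B10301, against 13.47 in the control, 9.17-fold lower in B10201 and at least 249-fold lower in B10301. Its B10301 value is a moved one and was 8.31 as deposited, which is also below the control. The lines differed from each other more in this gene than in any other member, and its unadjusted limma p was 0.082.

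Further genes far below the control lay outside the displaced blocks. LOC4339705 had 8.23 in B10201 and 6.71 in B10301, against 11.06 in the control, a mean log2 ratio of -3.59 ± 1.07 (SD, n = 2). LOC4339522 had 5.68 and 6.66, against 9.31 in the control. LOC4339404 had 7.73 and 8.08, against 10.08 in the control. All 3 lie after window 15 with both lines below the control, and in LOC4339705 the lines were more than 2-fold apart.

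Close to LOC4339522 in the order, LOC4339527 was at the floor in both lines, against 7.28 in the control, and LOC4339529 had 6.02 in B10201 and 6.20 in B10301, against 7.25 in the control. Between them and LOC4339522 stands LOC4339526, which was above the control, with 9.29 in B10201 and 11.10 in B10301, against 8.78 in the control. Its B10301 value is a moved one and was 5.25 as deposited. The neighbourhood therefore holds values on both sides of the control.

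Other genes far below the control were spread out. LOC4339471 was at the floor in B10201 and at 5.82 in B10301, against 8.28 in the control, with a B10301 value of 8.42 as deposited. LOC4337739, in an early window, had 7.53 and 8.07, against 9.97 in the control. LOC4339745 had 11.32 and 10.03, against 13.15 in the control. LOC4339274 had 6.36 and 7.51, against 9.72 in the control, with a B10301 value of 6.85 as deposited. The lines differed at least 2-fold from each other in LOC4339745 and LOC4339274.

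Over the 38 higher genes the median mean log2 ratio was 1.73 and the median SD between the lines 0.17, and over the 32 lower genes these were -1.72 and 0.24. None of the higher genes and 7 of the lower ones were at least 2-fold apart between the lines. The higher genes had a median control signal of 6.75 and the lower ones of 10.04. The part that this difference in level has in the direction was not tested, and the split of directions at other floors is given above.

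The rest of window 24, the fullest, was mostly of moderate size. LOC4339741 had 7.87 in B10201 and 7.83 in B10301, against 5.81 in the control, 4.19-fold and 4.07-fold higher. LOC4339770 had 7.23 and 7.47 with the control at the floor, log2 ratios of at least 1.72 and 1.97, and its B10301 value, a moved one, was 0.28 as deposited. LOC4339723 had 11.21 and 11.41, against 10.08 in the control, and LOC9271460 had 10.85 and 10.82, against 9.80 in the control. With LOC4339714, LOC4339750 and LOC4339780 they make the 7 higher genes of the window, and LOC4339705 and LOC4339745 are its 2 lower ones.

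Of the 70 genes, 10 carry a readable name, and 2 of them were higher, both linked to the cell wall. CESA1 had 11.72 in B10201 and 12.03 in B10301, against 10.71 in the control, a mean log2 ratio of 1.17 ± 0.21 (SD, n = 2). UGE-1 had 9.66 and 9.73, against 8.05 in the control, a mean of 1.64 ± 0.04. The other measured gene on the list of cell wall synthases, CSLC7, of the family that makes the xyloglucan backbone, had ratios of 0.67 and 0.24. With the arrays centred on their medians CESA1 was under 2-fold in B10201, at a log2 ratio of 0.86.

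Lower were 8 of the named genes. ERDJ3B, a J-domain partner of the Hsp70 chaperone of the endoplasmic reticulum, had 11.57 in each line, against 12.81 in the control. IVD, isovaleryl-CoA dehydrogenase of leucine breakdown, had 11.75 in B10201 and 11.54 in B10301, against 12.88 in the control, on a probe set marked s_at. AT5, a BAHD acyltransferase, had 6.90 and 7.82, against 10.01 in the control, a mean log2 ratio of -2.65 ± 0.65. AT5 is the named gene farthest below the control, and its lines differ more than those of ERDJ3B.

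The others were TPK3, OsC3H35, CAM2, CML9 and UREG. TPK3 had 8.92 in B10201 and 8.83 in B10301, against 10.04 in the control, and its B10301 value, a moved one, was 1.72 as deposited. OsC3H35, a CCCH zinc finger gene, had 9.43 and 9.62, against 10.75 in the control. Averaged over its 3 probe sets, OsC3H35 was no longer 2-fold from the control, with a smaller ratio of -0.78. Of the 70 genes, 7 had several probe sets above the floor, and in 1 of these, LOC4337952, the probe sets disagreed in sign.

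Gene lists matched by symbol give the wider pathways on the chromosome. Of 14 lists, 11 had a measured member, and CESA1 was the only list member 2-fold or more from the control in both. No list member passed limma. The share of all measured genes on one side of the control in both lines is not given here. Counts of list members above or below the control, here and below, therefore have no background to be read against. The 5 measured transporters were all below the control in both lines, their medians being -0.47 for B10201 and -0.36 for B10301 on the log2 scale, beside -0.04 and -0.02 over all members. ZIP5, a zinc transporter, had 6.99 and 7.63, against 8.38 in the control. ZIP3, a gene also listed as ZIP7, had ratios of -0.47 and -0.48 and ZIP6 of -0.48 and -0.36.

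Signalling genes lay on both sides. Of 9 protein kinases and phosphatases, 2 were above and 3 below the control in both lines. The MAP kinase gene MAPK6, also listed as MPK7, had 10.63 in B10201 and 11.07 in B10301, against 9.70 in the control. Its ratios were 0.93 and 1.38. The phosphatase genes OsPP2C48 and OsPP2C47 had ratios of -0.54 and -0.53, and of -0.48 and -0.55. The values of OsPP2C47 are from a probe set marked s_at, and its other probe set above the floor had a mean ratio of -0.09. MAPK6 thus missed the 2-fold rule in B10201 alone.

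Of 10 genes on the list of growth transcription factors, 4 were above and 5 below the control in both lines. The auxin response factor ARF15 had 10.56 in B10201 and 10.86 in B10301, against 9.74 in the control. HSFA4D, a heat shock factor that the list took up through its synonym SPL7, had 8.73 and 8.46, against 9.42 in the control. The flower gene MADS4 was at the floor in B10201 and at 6.57 in B10301, against 6.74 in the control. Of the 5 stress transcription factors, HSFA4D among them, 4 were below the control in both lines and DREB2D was above, with ratios of at least 0.74 and 0.25 over a control at the floor.

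Chaperones and metabolism were similarly mixed. CLPB1, a disaggregase of the Hsp101 family, had 6.44 in B10201 and 6.90 in B10301, against 7.57 in the control, and the small heat shock gene HSP22.3 had 9.10 and 8.71, against 8.48 in the control. Of 5 genes on the sugar and starch list, 3 were above and 2 below the control in both lines. The hexokinase gene HXK6, also listed as HXK7, had ratios of -1.14 and -0.74 and the beta-glucosidase gene BGLU22 of -1.05 and -0.50. SPS2, a symbol used for more than one enzyme, had ratios of 1.09 and 0.99. HXK6 and SPS2 each reached 2-fold in B10201 only. Moved values again enter here: as deposited, B10301 stood at 3.85 in CLPB1, 5.56 in HSP22.3 and 8.27 in HXK6.

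The photosystem I subunit gene PSAH had 15.54 in B10201 and 15.75 in B10301, against 15.17 in the control, and PSAG had 10.85 and 11.55, against 10.87 in the control. RCAR5, an abscisic acid receptor gene taken up by the photosynthesis pattern, had ratios of -0.54 and -0.39. The 3 ribosomal protein genes were below the control in both lines, with medians of -0.20 and -0.25, beside -0.04 and -0.02 over all members. The cytochrome P450 gene CYP714D1, which inactivates gibberellins, had ratios of -0.62 and -0.69 (B10301 moved, 7.38 as deposited). Ratios of the aquaporin gene TIP4-1 were -0.37 and -0.11, and its other probe set above the floor had a mean ratio of -0.91. No WRKY gene was matched, and none of 4 expansin genes or 2 Hsp70 genes was measured.

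Between the lines themselves, 55 members were at least 2-fold apart, 4.48%, beside 4.15% of all measured genes. B10201 was above B10301 in 42 of them and below it in 13, beside 403 above and 195 below over all measured genes. Inside the displaced blocks 18 of 262 members were that far apart (6.87%), and outside them 37 of 967 (3.83%). Outside the blocks B10201 was above in 31 and below in 6. With 1 array a line, these differences have no replicate check.

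**Figure D4:**
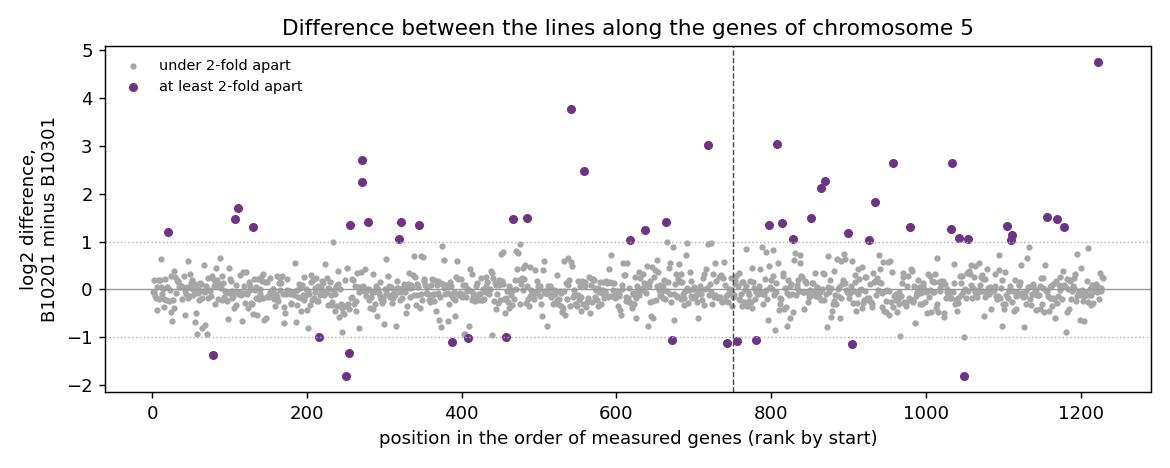
Log2 signal of B10201 minus that of B10301 for each of 1229 measured chromosome 5 genes by position in the order, with genes at least 2-fold apart marked and a dashed line after gene 750. Marked genes lie along the whole order, 28 before the line and 27 after it, and 42 of the 55 are above 0.

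The largest of these differences rest partly on moved values. LOC4338926, outside the blocks, had 9.88 in B10201 and 6.87 in B10301, with 7.97 in the control, so the lines lie on opposite sides of it. LOC9270995 had 9.28 in B10201 and the floor in B10301 and in the control, and its B10301 value was 9.18 as deposited. LOC4339101, on an x_at probe set, had 10.54 and 7.50, with 7.83 in the control, and 12.02 as deposited in B10301. LOC9271957 had 11.64 and 8.93, with 10.54 in the control, and 6.29 as deposited in B10301.

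On the other side, B10201 was below B10301 most in LOC4337946, with 6.30 in B10201 and 8.13 in B10301, and 7.46 in the control. LOC4339526, given above, follows. The kinesin-5 motor gene KIN5A had 6.10 in B10201 and 7.48 in B10301, with 6.39 in the control, and 8.90 as deposited in B10301. LOC4337961 had 7.75 in B10201 and 9.09 in B10301, with 9.10 in the control, so B10301 alone matched the control.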

How the data were processed

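Leaf RNA of 3 samples, 1 array each, was compared: the OsEBS-transgenic lines B10201 and B10301 and control Guichao2. The deposited values are log2 signals; the authors computed them by MAS5, as the submitters' processing notes name it, and its version and settings are not given in the sources used here. No further normalization was applied. In B10301, 6717 and 988 consecutive rows took the value 1 row above, since they correlated with the average of B10201 and the control at 0.397 and 0.051 as deposited and at 0.939 and 0.823 after the move.

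Signals were raised to the median of all signals, 45.4 in linear signal, and 26475 of 57194 probe sets had a mean above it. Probe sets were named from the platform annotation, 22436 with 1 gene. The gene table's order of genes was used, without coordinates, and the gene order of Guichao2 was not analysed here. Of 1229 members, 175 had several probe sets above the floor, which differed in sign in 52, and 141 rested on an x_at or s_at probe set. The limma fit (version 3.58.1, in R 4.3.3) covered all probe sets above the floor with an intensity trend and 1 residual degree of freedom, from the difference between the lines. It was also run on simulated data in which the control varied like the lines, so that run cannot check this assumption. Other steps used Python 3.11.15, numpy 2.4.6, pandas 2.3.3 and matplotlib 3.10.9.

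Members, gene lists and tests were chosen with earlier results of these data known. Named genes were the 12 per direction with the largest smaller-of-the-lines ratio, genes at least 2-fold in both lines that had a readable symbol or synonym, lay in a run of at least 3 or lay in the fullest window, the 5 per direction farthest apart between lines, up to 3 per list by the largest absolute mean ratio, and neighbours of these. Genes named outside that rule, such as those at a threshold, were chosen after their values were seen. Alternatives covered the displaced rows, scaling, floor, fold, window size, probe set choice, limma settings and leaving out a line. The number of arrays limits the precision.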

Additional observations from a re-analysis of the deposited data

How the results depend on the processing

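With 70 members at least 2-fold in both lines, a floor at the 25th percentile gave 131, one at the 75th percentile 30, a 1.5-fold rule 208, a 4-fold rule 23, and leaving out a line 125 to 127. The first 15 windows, with 19, held 51, 10, 76 and 4 under those settings and 43 to 53 with a line left out; the later windows, with 51, held 80, 20, 132, 19 and 74 to 82. The highest count in any window, 9 in window 24, was 5 under the 75th percentile floor, where windows were cut anew among fewer genes. With a line left out it was 12 to 14, each in another window, and window 24 itself held 10 to 11. The later share was the higher under every setting run, but all settings reuse the same arrays and a cut chosen from these counts, so this adds no separate support. The split of windows was examined under settings added after the data were seen. For limma, 11 members passed without raising signals to the floor and 6 with robust moderation, in place of 0; the cause was not tested. Genes apart between lines, 55, numbered 231 as deposited, 150 with the lower floor and 22 with the higher. The median ratio, -0.0306, was -0.0573 as deposited, -0.0132 after quantile normalization and -0.1756 with centred arrays. Of the 70 genes, every measured one kept its direction under 9 alternatives except LOC4337967 as deposited. The 70 were picked by direction on these same arrays, so a kept direction is no separate support. Only 32 of them were measured under the 75th percentile floor and 55 with the displaced blocks left out, and 61 stayed 2-fold in both lines with centred arrays. No limma fit was possible without a line, and none of these settings replaces a second control array. No paired analysis was possible because the replicate numbers only name the lines and there is 1 control.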
